A study of Drosophila melanogaster with 5 samples.

Results

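The SoxB genes of Drosophila melanogaster were examined through the open-chromatin peaks around them. The peaks came from FAIRE-seq, in which fixed, sheared chromatin is extracted with phenol and the DNA that nucleosomes do not hold back is sequenced. Members were the peaks whose midpoint fell in either of 2 windows of the dm3 build. The windows are set by position, but they were chosen with earlier results of these data known. The first window, positions 14000000 to 14220000 of 3L, is given as the SoxB cluster with D, Sox21a and Sox21b. The second, positions 8800000 to 8900000 of 2L, is given as the SoxN locus. Together they held 101 of the 20000 deposited peaks. Of these, 57 came from the 10000 peaks of the midline list (37 at the cluster, 20 at SoxN) and 44 from the 10000 peaks of the embryo list (28 and 16).

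SoxB proteins are transcription factors that bind DNA through an HMG box and bend it. In animals some of them are known for keeping cells of the early nervous system in a progenitor state. D (Dichaete, also called fish-hook) is expressed in the fly neuroectoderm and in the midline, where it is known to act with the bHLH-PAS factor Single-minded and the POU factor Ventral veins lacking. SoxN (SoxNeuro) is expressed broadly in the neuroectoderm and is needed for the formation of neural progenitors, with a role that overlaps that of D. Sox21a is best known from the adult gut, where it is needed for intestinal stem cells and their progeny to differentiate. Sox21b, beside it, encodes a further SoxB protein.

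The midline list came from 2 libraries of GFP-positive cells, sorted from embryos of the strain sim3.7-Gal4 UAS-mCD8::GFP aged 6 to 8 hours. In these embryos a driver with regulatory DNA of the midline gene sim switches on a membrane GFP, so the sorted cells are those in which this driver is active. The embryo list came from 2 libraries of whole OregonR embryos of the same age, which contain midline cells as a small minority. The midline cells were dissociated and sorted before 5 minutes of fixation, whereas the whole embryos were fixed intact for 10 minutes. Strain, handling and cell type therefore cannot be told apart between the lists. The other library was genomic DNA of adult virgin females of the strain y;cn,bw,sp, and no values of it were analysed here. The authors pooled the replicates of each group before they called peaks, so each peak has 1 value and no spread between replicates. A pooled peak does not tell whether a region is open in more cells or more open in each cell. Read depth is unknown, and the series holds no expression values against which the sorted cell type could be checked.

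In the RefSeq gene table, which is on another build (Release 6) and was used only for names and gene order, all 4 genes were found on the arms that the windows name. Along 3L the order is Fbp1, Sox21a, Sox21b, lncRNA:CR45887, D and nan. Fbp1 encodes a fat body protein of the larva, and nan (nanchung) an ion channel subunit of hearing neurons. SoxN stands on 2L between CG42710 and lncRNA:CR45365. No dm3 annotation was used, so no peak is assigned to a gene, and some peaks may belong to other genes of the windows.

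Both loci were richer in open regions than the arms as a whole. Peaks of the 2 lists that had 1 bp or more in common were called shared, and the rest midline-only or embryo-only. At the SoxB cluster, merging overlapping peaks of both lists gave 46 open regions, of which 18 were midline-only, 19 shared and 9 embryo-only. At SoxN there were 24 regions, with 8 midline-only, 11 shared and 5 embryo-only. Midline-only regions thus outnumbered embryo-only regions at both loci. Over all peaks the order was the opposite, with 3911 midline-only (28.2% of 13873 regions), 5620 shared (40.5%) and 4342 embryo-only regions (31.3%). At the cluster the 3 classes made up 39.1, 41.3 and 19.6%, and at SoxN 33.3, 45.8 and 20.8%. No test was made of these shares against the rest of the genome.

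**Figure D1:**
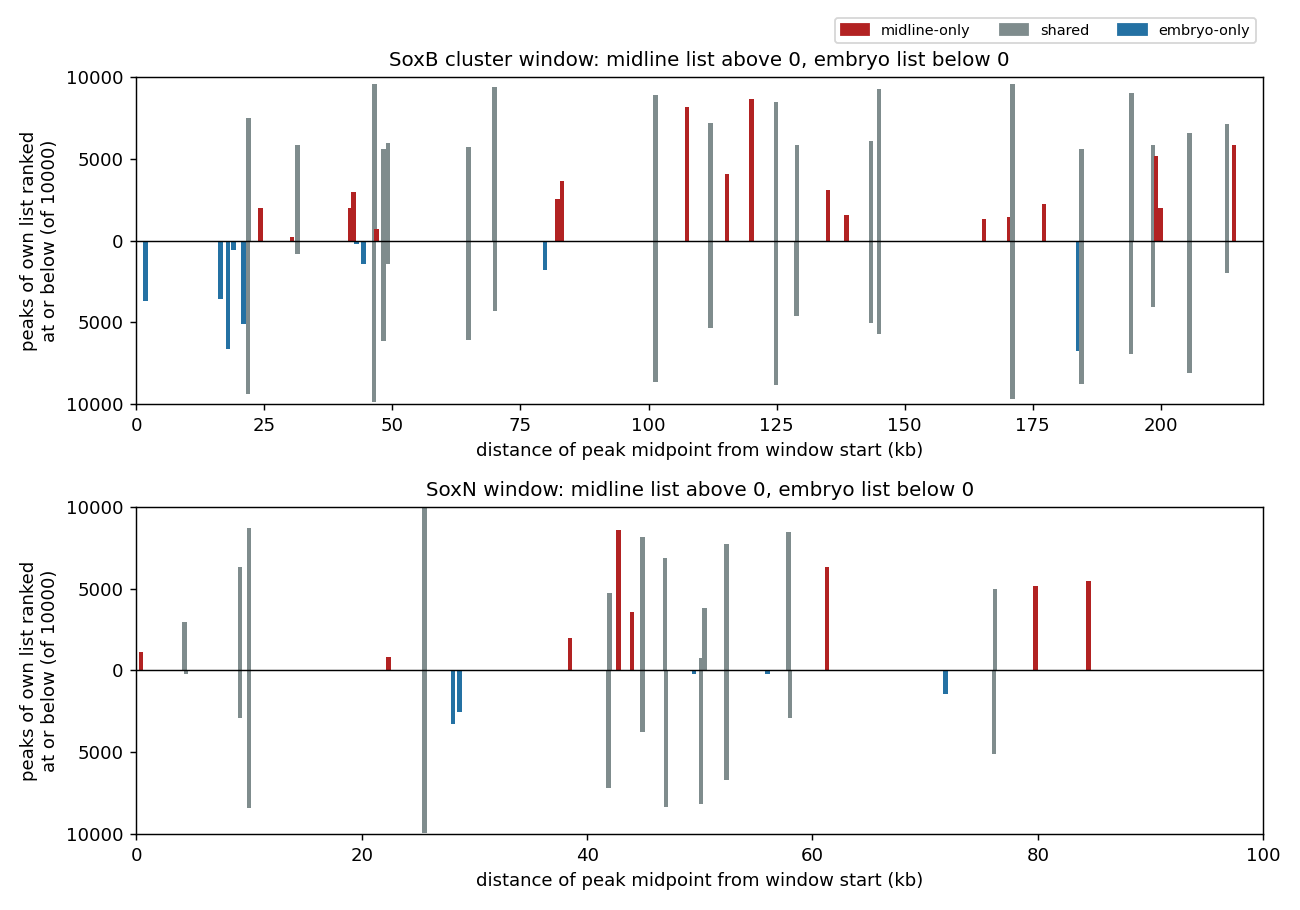
Peaks along the SoxB cluster window (top) and the SoxN window (bottom), by the distance of their midpoint from the window start in kb. Bar height is the number of peaks of the own list ranked at or below the peak (of 10000, linear axis), with midline peaks drawn upwards, embryo peaks downwards, and colours for midline-only, shared and embryo-only. The first 20 kb of the cluster window hold 4 embryo peaks and 0 midline peaks, and the highest bars of the SoxN window are those of a shared peak in both lists.

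The density of midline peaks was 16.8 per 100000 bp at the cluster (exact Poisson 95% interval 11.8 to 23.2, counting error only) and 20 at SoxN (12.2 to 30.9), against 8.51 over the span of all midline peaks. Embryo peaks reached 12.7 per 100000 bp at the cluster (8.46 to 18.4) and 16 at SoxN (9.15 to 26.0), against 8.42 over all. Midline peaks were therefore 1.98 and 2.35 times as dense as on average, and embryo peaks 1.51 and 1.90 times. Denser stretches exist elsewhere. When the arms were tiled with windows of the same length, 5.98% of 535 tiles held at least as many midline peaks as the cluster and 6.53% of 1179 tiles as many as SoxN. For embryo peaks the same shares were 16.4% of 538 and 12.4% of 1186 tiles.

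The shared parts at both loci had wide intervals, which included the shared part of the whole list. At the cluster 19 of 37 midline peaks were shared (51.4%, exact 95% interval 34.4 to 68.1%, counting error only), and at SoxN 12 of 20 (60.0%, 36.1 to 80.9%). Over the whole midline list 60.9% were shared. Of the embryo peaks, 19 of 28 were shared at the cluster (67.9%, 47.6 to 84.1%) and 11 of 16 at SoxN (68.8%, 41.3 to 89.0%), against 56.6% of the whole embryo list.

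The shared parts did not pass a test for a difference between the cluster and SoxN in either list. In the midline list the share was lower at the cluster by 8.65 points, with an odds ratio of 0.71 (95% interval 0.20 to 2.41, two-sided Fisher's exact test, p = 0.59). In the embryo list the odds ratio was 0.96 (0.20 to 4.25, two-sided Fisher's exact test, p = 1). After Benjamini-Hochberg adjustment over the 2 tests both p-values were 1. The direction was not stable: the midline difference (cluster minus SoxN) was 8.65 points with a reciprocal overlap of 50% and 19.0 points among the 5000 highest peaks, and the embryo difference 14.3 points with the reciprocal overlap. The odds ratio intervals are wide and leave room for lower or higher odds of sharing at the cluster. The test also treats peaks as independent although neighbours share a locus.

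**Figure D2:**
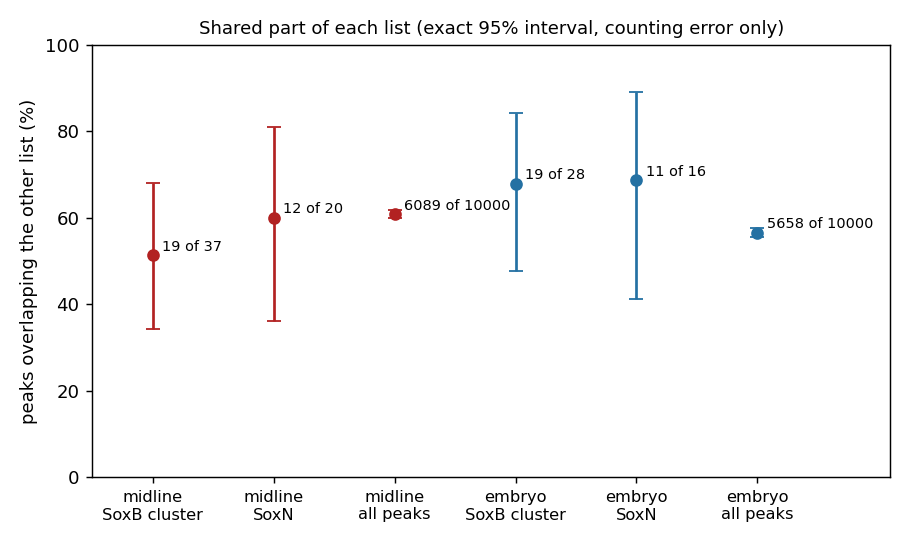
Percentage of peaks that overlap the other list, at the SoxB cluster, at SoxN and over all peaks, for the midline list and the embryo list. Points are shares, bars are exact 95% intervals for counting error, and the numbers give shared peaks of all peaks. All 4 window intervals contain the share of the whole list.

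The highest-ranked region of the 2 loci, in both lists, was a shared peak of the SoxN window. In midline cells it spanned 8825133 to 8826008 of 2L with an authors' score of 582, which ranked 84 of 10000, where rank 1 is the highest score and tied peaks take the best rank. In whole embryos it spanned 8825143 to 8826016 with a score of 1140 and ranked 48. Both peaks were about equally wide, at 876 and 874 bp, and their midpoints lay 9 bp apart. Scores are on the scale of their own list and were compared only as ranks.

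The next shared peaks of SoxN ranked far lower. The midline peak at 8809801 to 8810124 had a score of 252 and rank 1313, and its embryo partner at 8809704 to 8810276 a score of 406 and rank 1621. The third by midline score, at 8857407 to 8858367, had a score of 231 and rank 1543. Its embryo partner at 8857796 to 8858187 had a score of only 105 and rank 7085. With a width of 961 bp the midline peak was the widest member of the midline list, whereas the embryo partner was 392 bp wide. This pair showed the largest rank difference towards the midline list at SoxN (midline minus embryo rank -5542).

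The opposite extreme at SoxN was an embryo peak that overlapped 2 weak midline peaks. The embryo peak at 8849820 to 8850367 had a score of 370 and rank 1860. Within it lay a midline peak of 126 bp at 8850011 to 8850136 with a score of 46 and rank 9271, a rank difference of 7411. A further midline peak, at 8850271 to 8850531, overlapped its edge with a score of 74 and rank 6212. This was the only region of the 2 windows with more than 2 peaks.

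At the SoxB cluster, a pair of shared peaks stood near the top of both lists. On 3L, the midline peak at 14170592 to 14171356 scored 382 and ranked 455, with an embryo partner at 14170522 to 14171407 of score 821 and rank 312. The midline peak at 14046140 to 14046815 had a score of 378 and rank 464, with an embryo partner at 14046095 to 14046759 of score 959 and rank 142. Both regions thus held rank 464 or better in either list. The third by midline score, at 14069579 to 14070196, reached a score of 348 and rank 609 in the midline list. Its embryo partner at 14069771 to 14070175 had a score of 133 and rank 5713.

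The pairs that differed most in rank at the cluster differed in both directions. At 14212682 to 14213091 the midline peak ranked 2898 (score 155) and its embryo partner, 14212704 to 14213026, ranked 8029 (score 91). At 14184374 to 14184602 the midline peak ranked 4439 (score 106) and its embryo partner, 14184375 to 14184650, ranked 1230 (score 477). The rank difference was -5131 for the first pair, which stood higher in midline cells, and 3209 for the second, which stood higher in the embryo.

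Shared peaks were paired by their mutually largest overlap, and with ranks by score the interval of the median rank difference included 0 at both loci. Of 19 pairs at the cluster, 11 ranked higher in midline cells and 8 in the embryo, with a median difference (midline minus embryo rank) of -1093 (95% interval of the median -3587 to 367). Of 11 pairs at SoxN, 6 ranked higher in the midline list, with a median of -308 (-4405 to 2497). Across all 5633 pairs of the series 49.3% ranked higher in the midline list and the median was 22. Both intervals also include the median of all pairs. With ranks by peak width instead, the cluster median was -664 (-1495 to -175), an interval that leaves out 0 and the 130 of all pairs. All these intervals treat pairs as independent although neighbours share a locus, and they hold no spread between replicates. They therefore describe the pairs of these 2 lists only. More than 2000 ranks separated the partners in 7 of 19 pairs at the cluster and in 6 of 11 at SoxN, against 2122 of all 5633.

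**Figure D3:**
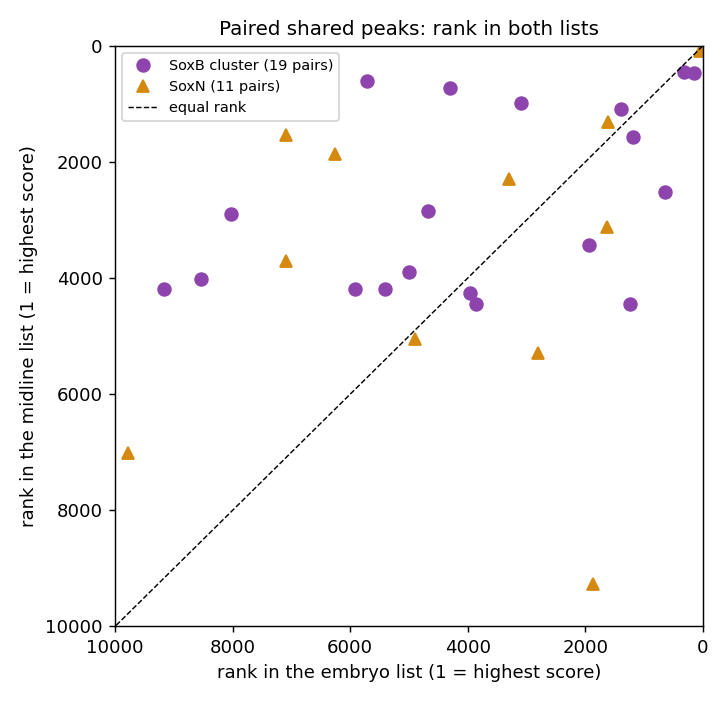
Embryo rank (horizontal axis) against midline rank (vertical axis) of each pair of shared peaks, linear axes with rank 1 at the top and at the right. Circles are 19 pairs of the SoxB cluster, triangles 11 pairs of SoxN, and the dashed line marks equal rank. The highest SoxN pair, at ranks 84 and 48, lies in the upper right corner, and the 19 cluster pairs all have a midline rank of 4439 or better.

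The partners of a pair lay almost on top of each other. Their midpoints were a median of 22 bp apart at the cluster and 20 bp at SoxN, and at most 94 and 104.5 bp, whereas the median over all pairs was 34.5 bp. Median widths were 343 bp for midline peaks and 386 bp for their embryo partners at the cluster, and 476 and 548 bp at SoxN. The midline partner was the narrower in 11 of 19 and in 7 of 11 pairs. Over all pairs it was the narrower in 78.5%.

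The cluster held 2 midline-only peaks that ranked among its stronger peaks. On 3L, the peak at 14119877 to 14120373 scored 245 and ranked 1366, with the nearest embryo peak 4346 bp away. The peak at 14107369 to 14107670 had a score of 209 and rank 1821, 4277 bp from the nearest embryo peak. The third, at 14214145 to 14214439, had a score of 113 and rank 4197 and lay 1118 bp from an embryo peak. The first of these therefore ranked above all but 6 of the 19 shared midline peaks of the cluster.

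The highest midline-only peak of SoxN stood apart from the others in rank. It spanned 8842610 to 8843061 of 2L with a score of 242 and rank 1426, and lay 351 bp from the embryo peak at 8841493 to 8842258, which had its own midline partner. The second, at 8861090 to 8861508, had a score of 125 and rank 3711, and the third, at 8884282 to 8884623, a score of 104 and rank 4543. Their nearest embryo peaks were 2902 and 7907 bp away. The distance of the third was the longest among the 26 midline-only members, measured to the embryo peaks in the deposited list. Of these 26, 8 (30.8%, 4 at each locus) were in the upper 5000 of the midline list, against 22.8% of all midline-only peaks.

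Embryo-only peaks were fewer than midline-only peaks, and those of SoxN ranked low. At the cluster the 3 highest were at 14183809 to 14184039 (score 236, rank 3248), 14017620 to 14018212 (score 228, rank 3370) and 14020725 to 14020995 (score 156, rank 4906). At SoxN they were at 8828002 to 8828224 (score 111, rank 6744), 8828566 to 8828794 (score 99, rank 7451) and 8871571 to 8872029 (score 85, rank 8544). All 5 embryo-only peaks of SoxN thus lay in the lower 5000 of the embryo list, as did 6 of the 9 at the cluster. Together 3 of 14 (21.4%) were in the upper 5000, against 23.8% of all embryo-only peaks. The first cluster peak lay 334 bp from a midline peak, and the pair of SoxN peaks at 8828002 and 8828566 lay 1993 and 2557 bp from one.

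At the cluster, sharing followed the rank of the midline peak. All 19 shared midline peaks of the cluster were among the upper 5000 of the midline list, together with 4 midline-only peaks. All 14 midline peaks of the cluster in the lower 5000 were midline-only, whereas 39.6% of the lower 5000 midline peaks of the whole list were shared. At SoxN 7 of 11 upper and 5 of 9 lower midline peaks were shared. In the upper 5000 of the whole midline list 82.1% were shared. In the embryo list 12 of 15 upper and 7 of 13 lower peaks were shared at the cluster, and 7 of 7 and 4 of 9 at SoxN, against 79.3 and 33.8% of all upper and lower embryo peaks. The difference between the loci in the lower 5000 was noticed in the data and was not tested.

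**Figure D4:**
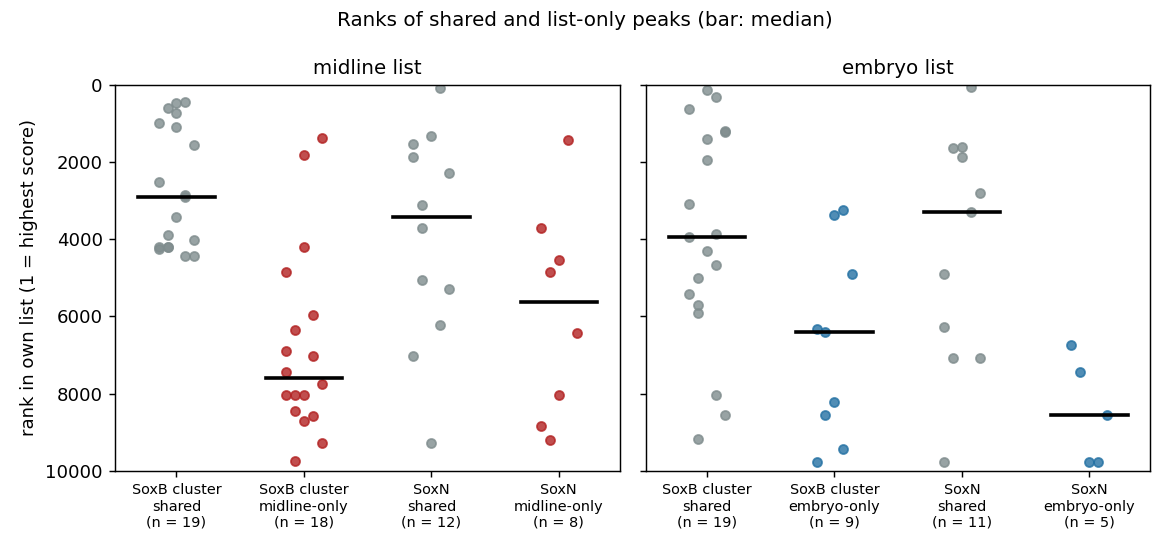
Rank in the own list (1 is the highest score, at the top of a linear axis) of each shared and list-only peak at the SoxB cluster and at SoxN, for the midline list (left) and the embryo list (right). Points are peaks and bars are medians. At the cluster the median midline rank is 2898 for shared and 7601 for midline-only peaks, and at SoxN the embryo medians are 3294 for shared and 8544 for embryo-only peaks.

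The classes were unevenly laid out along the cluster. The first 20 kb of the window held 4 embryo-only peaks and 0 midline peaks. With the next embryo-only peak, 5 fell in 1 gap of 23.0 kb between kept midline peaks, from 13998606 to 14021651. Further along, the 104 kb between the embryo-only peaks at 14079695 and 14183809 held 10 midline-only peaks, 7 shared pairs and 0 embryo-only peaks. The 2 strongest midline-only peaks of the cluster lie in this stretch. The stretch was picked after its values were seen. It is bounded by 2 neighbouring embryo-only peaks, so its 0 embryo-only peaks follow from that choice. No test was made of the stretch. The longest interval between members free of kept peaks of both lists, 20030 bp from 14145388 to 14165417, was also inside it.

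At SoxN the peaks crowded into the middle of the window. The 20 kb from 8840001 to 8860000 held 9 of its 20 midline peaks and 8 of its 16 embryo peaks. The last 20 kb held 1 midline peak and 0 embryo peaks. Between members, the longest interval without a kept peak of either list was 12.1 kb, from 8810277 to 8822348, and no kept peak followed the last member, which ended at 8884623, within the window.

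The numbers in the authors' peak names skip values, and if they were given before the highest peaks were selected, each skipped number stands for a weaker call. On that assumption, the midline list kept 37 of 51 numbered peaks at the cluster (72.5%) and 20 of 35 at SoxN (57.1%). Over all numbers of the midline list 65.8% were kept. The embryo list kept 28 of 48 at the cluster (58.3%) and 16 of 29 at SoxN (55.2%), against 57.0% over all its numbers. Of the 9 embryo-only peaks of the cluster, 8 had flanking midline peaks with consecutive numbers, so no midline call had been left out there. These 8 fell in only 3 gaps between midline peaks, 1 of which held 5 of them. At SoxN 0 of 5 embryo-only peaks lay in such a gap, and the positions of the left-out midline calls are unknown. Over all embryo-only peaks with flanking midline peaks the share was 30.5%.

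For midline-only peaks the counts were 6 of 18 at the cluster and 1 of 8 at SoxN, against 19.8% over all midline-only peaks with flanks. The 1 at SoxN was the peak at 8861090 to 8861508. The 6 at the cluster included the third by score, at 14214145 to 14214439. The 2 strongest of the cluster and the strongest of SoxN lay where 1, 2 and 2 embryo calls had been left out, at unknown positions. The SoxN peak at 8884282 to 8884623, farthest from a kept embryo peak, lay in a gap of 73.5 kb where 8 embryo calls had been left out. Within the stretch of 104 kb, 10 embryo calls had been left out. Of its 10 midline-only peaks, 8 lay in gaps between kept embryo peaks where at least 1 embryo call had been left out. How near those calls lay is unknown.

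Some list-only peaks stood directly beside a peak of the other list. Of the 26 midline-only members 7 lay within 1000 bp of an embryo peak (26.9%, against 28.2% of all midline-only peaks with flanks). Of the 14 embryo-only members 4 lay within 1000 bp of a midline peak (28.6%, against 23.6%). The closest were the midline-only peaks at 14170311 to 14170454 and 14046860 to 14047012, 67 and 100 bp from the embryo partners of the 2 highest shared peaks of the cluster. Such peaks count as list-only by the overlap rule, although they adjoin a region open in both.

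The windows were fixed by position, and peaks near their edges give the limits. At the cluster the last peaks before the window were a shared pair, midline 13998170 to 13998605 (score 197) and embryo 13998248 to 13998578 (score 258). The first members were the embryo-only peak at 14001685 to 14001881 (score 119) and the midline peak at 14021652 to 14022089 (score 171). On the right the last members were the midline-only peak at 14214145 and the embryo peak at 14212704, and the next peaks outside, a shared pair at 14267160 (midline, score 283) and 14267088 (embryo, score 723), had their midpoints 47337 and 47321.5 bp beyond the edge. At SoxN the nearest peaks outside were shared pairs as well, at 8794097 (midline, score 69) and 8794251 (embryo, score 85) on the left and at 8949986 (midline, score 189) and 8949911 (embryo, score 133) on the right. The first members of the SoxN window were the midline-only peak at 8800263 (score 50) and the embryo peak at 8804301 (score 71), and the last the midline-only peak at 8884282 and the embryo peak at 8875914 (score 156).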

How the data were processed

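The submitters' processing notes name dm3, MACS2, Bowtie2, bedtools, SAMtools and CASAVA 1.8.2, without their roles. Of their settings and of how the input entered, the sources used here say nothing. Per the peak names, the authors called peaks on pooled replicates. Per the names of the lists, they deposited the 10000 highest of each group, each scored. This deposited score, a whole number of unstated scale, served only for ranks within a list. Depth is unknown.

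Members, classes, pairs and intervals were computed with Python 3.11.15, numpy 2.4.6 and scipy 1.17.1 and plotted with matplotlib 3.10.9. Counting was checked on simulated lists with known answers. Coordinates are 1-based. Tests were Fisher's exact tests between the windows, with a threshold of 0.05. Named peaks are, per window, the 3 highest of each class (shared by midline score), the pairs with the largest rank difference and the peaks at the edges; others were chosen after their values were seen. The members, windows and lists were chosen with earlier results of these data known. The planned protein comparison was not run, since no sequences were supplied.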

Additional observations from a re-analysis of the deposited data

How the results depend on the processing

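Of 60 values recomputed under alternatives, 48 kept their place relative to the reported interval, or their direction and side of the threshold, 8 moved and 4 turned in direction. The 4 were differences between the windows in the shared part, none past the threshold in Fisher's exact test: with a reciprocal overlap of 50%, 8.65 points for midline and 14.3 for embryo peaks (reported -8.65 and -0.89), with windows widened by 20000 bp, 1.29 points for embryo peaks, and among the 5000 highest peaks, 19.0 points for midline peaks. The cause was not tested. All 8 that moved came from keeping only the 5000 highest peaks. For the shared parts only the own list was cut, and the other list was kept whole. Shared parts were then 76.5% of midline members (82.6% at the cluster, 63.6% at SoxN), beside 82.1% of the whole list so filtered, and 86.4% of embryo members (80.0% and 100%, the latter 7 of 7), beside 79.3%. Of these, the 63.6% and the 80.0% stayed within the reported intervals. Densities per 100000 bp fell to 10.5 and 11 for midline and to 6.82 and 7 for embryo peaks, at the cluster and SoxN, since fewer peaks are kept by construction. With windows widened by 20000 bp, the densities at the cluster and SoxN were 15.8 and 15.7 for midline and 12.3 and 12.1 for embryo peaks. The higher density at SoxN was thus not kept there. The test passed under no alternative, including midpoints within 250 bp, 500 bp around midpoints and any overlap with the window. The median rank difference at the cluster had an interval without 0 when ranked by width (-664, -1495 to -175), and with 0 when ranked by score. Both intervals treat neighbouring pairs as independent and hold no spread between replicates. No paired analysis was possible because each deposited list joins both replicates, and leaving out 1 replicate was likewise not run. Each list held 16 to 37 peaks per window, which limits every share.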
